A study of Mus musculus with 4 samples.

Results

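Rora encodes RORα, a nuclear receptor of the retinoid-related orphan receptor family. The protein binds DNA at ROR response elements and activates nearby genes, and in Th17 cells it takes part in the programme that includes IL-17 expression. It is also known from the molecular clock, where it drives Arntl in competition with the REV-ERB repressors, and from the cerebellum, whose Purkinje cells fail to mature in staggerer mice, which carry a Rora mutation. CpG methylation over an intronic enhancer generally goes with low activity of that enhancer; whether the regions described here are enhancers was not examined.

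The members described are all rows of the deposited table whose gene label is Rora (ENSMUSG00000032238). There are 14 of them among 10000 regions in all, and all 14 are listed as intronic, on chromosome 9 of mouse build mm9. The table lists 7865 intronic regions in total. Sequencing of captured methylated DNA was performed on 4 populations of CD4+ T cells taken from lymph nodes and spleen of Balb/c females, with 1 library each. Th17 cells were CD45RB low and secreted IL-17A without interferon gamma, Th1 cells were CD45RB low and secreted interferon gamma without IL-17A, regulatory T cells (Treg) were sorted as CD25 very high, and naive cells as CD45RB high. All 4 were stimulated with PMA and ionomycin for 3 h, with the sort coming before stimulation for Treg cells and after it for the rest. The labels give neither the age of the mice nor the number pooled. Sorting rests on surface and secreted proteins, which DNA capture does not read, so the identity of each population could not be checked here.

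Capture was done with a protein domain that binds methylated CpG, so the reads in a region depend on its methylation and on how many CpGs it holds. Each deposited value is a number of reads times a constant for the library. One read was worth 0.352 in the Treg library, 1.68 in Th1 and 0.996 in naive, and the table holds 74571 Treg, 19548 Th1 and 34277 naive reads. The Treg values are therefore the most precise and the Th1 values the least. With 1 library per population, no difference below has a replicate check, and every interval is at 95% and covers counting error only. Fewer methylated copies and fewer cells of a kind that carries them cannot be told apart in such a population. No mm9 genome was used, so the letters and CpG counts of the 14 regions are not given.

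The sequence shown is that of the Rora promoter, where the table, which lists 477 promoter regions, has 0 for this gene. The RefSeq sequence (GRCm38.p6, chr9:68653536-68653835, plus strand) runs from 250 bases before to 50 bases after 1 annotated start. Its coordinates belong to another build than the mm9 coordinates of the regions, so its place among the regions cannot be read from them. The capitals mark CpG, the sites that can be methylated and captured.
Rora promoter: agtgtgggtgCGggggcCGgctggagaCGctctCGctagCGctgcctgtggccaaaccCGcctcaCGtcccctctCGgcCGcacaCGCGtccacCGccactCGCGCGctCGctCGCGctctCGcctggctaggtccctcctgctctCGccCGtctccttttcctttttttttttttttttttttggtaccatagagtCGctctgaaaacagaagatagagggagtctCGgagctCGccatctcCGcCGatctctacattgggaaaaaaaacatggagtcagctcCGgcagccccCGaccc
It holds 28 CpG in 300 bases, searched as CG on both strands at once since the motif reads the same on each. The median over 32851 RefSeq promoters of that length was 7, and 14.2% held at least as many as Rora. The sources used here do not say how the table's regions were chosen, so the absence of a promoter region says nothing about methylation there.

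The 14 regions were spread over 655.9 kb and together covered 3481 bases, 0.531% of that span. Since RefSeq places Rora on the plus strand, they are numbered 1 to 14 from low to high coordinate, in the direction of transcription. Region lengths ran from 143 to 409 bases with a median of 243.5, beside a median of 247 for all intronic regions. Gaps between neighbours had a median of 46.6 kb. The shortest gap was 572 bases, between regions 6 and 7, and the longest were 107.1 kb between regions 4 and 5 and 108.7 kb between regions 13 and 14. Regions 5 to 12 lay closest together, 8 regions within 194.9 kb. No region of another gene lay among them. The nearest listed regions on either side belonged to Vps13c, 709.1 kb before, and to Fam81a, 753.4 kb after.

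The table's own region numbers give another view of how thickly Rora was listed. From the first to the last Rora region they span 705 numbers, of which the table holds 14, or 1.99%. The share held over all numbers that the table spans is 0.674%. Rora was not unusual in this among long genes: of the 46 genes with 10 or more intronic regions, which had been picked for being listed often, the median was 2.41% and 9 genes were lower than Rora.

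All 14 regions were listed at 0 in the Th17 library, as were all 10000 regions of the table. The sources used here do not give the depth of the Th17 library, so what a 0 allows can only be stated for assumed depths. For a region not chosen for its 0, a count of 0 allows up to 3 reads. All listed regions share a Th17 value of 0, so the listing itself may have set it and the limits below may not hold. If the Th17 library were as deep as the Treg library, the limit would be a value of 1.06. The mean value over Treg, Th1 and naive was above it in all 14 Rora regions. At the naive depth the limit would be 2.99, exceeded in 8 of 14 regions. At the Th1 depth it would be 5.04, exceeded in region 4 alone. For the table as a whole, 99.8%, 53.3% and 2.28% of regions exceeded the same 3 limits. Most Rora regions were thus above the limit at the 2 greater depths and below it at the Th1 depth, as in the table in general, and no fold against Th17 was formed.

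Reads in the other 3 libraries are given region by region from the 5′ end. Region 1 (68528972 to 68529114) held 5 Treg, 0 Th1 and 4 naive reads. In region 2 (68599166 to 68599395) there were 2 Treg, 1 Th1 and 4 naive reads. Region 3 (68614751 to 68614966) held 5 Treg, 3 Th1 and 3 naive reads. These first 3 regions, whose starts lie within 85.8 kb, were all low in the Treg library. Their Treg values were 1.76 (0.572 to 4.11), 0.705 (0.0854 to 2.55) and 1.76 (0.572 to 4.11). In regions 1 and 3 that interval takes in 2.57, the Treg mean over intronic regions of other genes.

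Region 4 (68693801 to 68694112) stood out by its Th1 reads. It held 7 Treg, 6 Th1 and 3 naive reads, which are values of 2.47 (interval 0.992 to 5.08), 10.1 (3.70 to 22.0) and 2.99 (0.616 to 8.73). This was the highest Th1 value in the gene, with 6 of its 24 Th1 reads, although its interval overlapped those of both other libraries. It also had the highest mean over the 3 libraries, 5.18. Region 5 (68801261 to 68801538) followed with 6 Treg, 2 Th1 and 4 naive reads.

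Regions 6 and 7 are the close pair. Region 6 (68825841 to 68825985) held 2 Treg, 2 Th1 and 5 naive reads. Region 7 (68826558 to 68826860) held 13 Treg, 2 Th1 and 5 naive reads, 20 in all and the most of any Rora region. The Th1 and naive reads of the pair were the same. The Treg values were 4.58 (2.44 to 7.84) in region 7 and 0.705 (0.0854 to 2.55) in region 6, with intervals that overlap slightly. Region 7 is 303 bases long and region 6 is 145, and the part of length in the Treg reads was not tested for this pair.

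The 3′ regions were even in the Treg library and sparse in Th1. Region 8 (68886622 to 68886880) held 9 Treg, 3 Th1 and 3 naive reads. Region 9 (68894594 to 68894842) held 11 Treg, 0 Th1 and 3 naive reads. The longest, region 10 (68933802 to 68934210), held 9 Treg, 2 Th1 and 7 naive reads, the most naive reads in the gene. From region 8 on, Treg reads stayed between 7 and 11.

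Region 11 (68980768 to 68980997) held 8 Treg, 0 Th1 and 6 naive reads. In region 12 (68995991 to 68996168) there were 7 Treg, 2 Th1 and 4 naive reads. Region 13 (69075712 to 69076002) held 8 Treg, 0 Th1 and 3 naive reads, and region 14 (69184653 to 69184890) held 9 Treg, 1 Th1 and 4 naive reads. The 4 regions with no Th1 read were thus 1, 9, 11 and 13. A count of 0 in that library allows a value of up to 5.04. The naive values of these 4 regions lay between 2.99 and 5.98, with intervals that all reach below that limit, so a lower Th1 value was not detectable in any one of them at this depth.

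**Figure D1:**
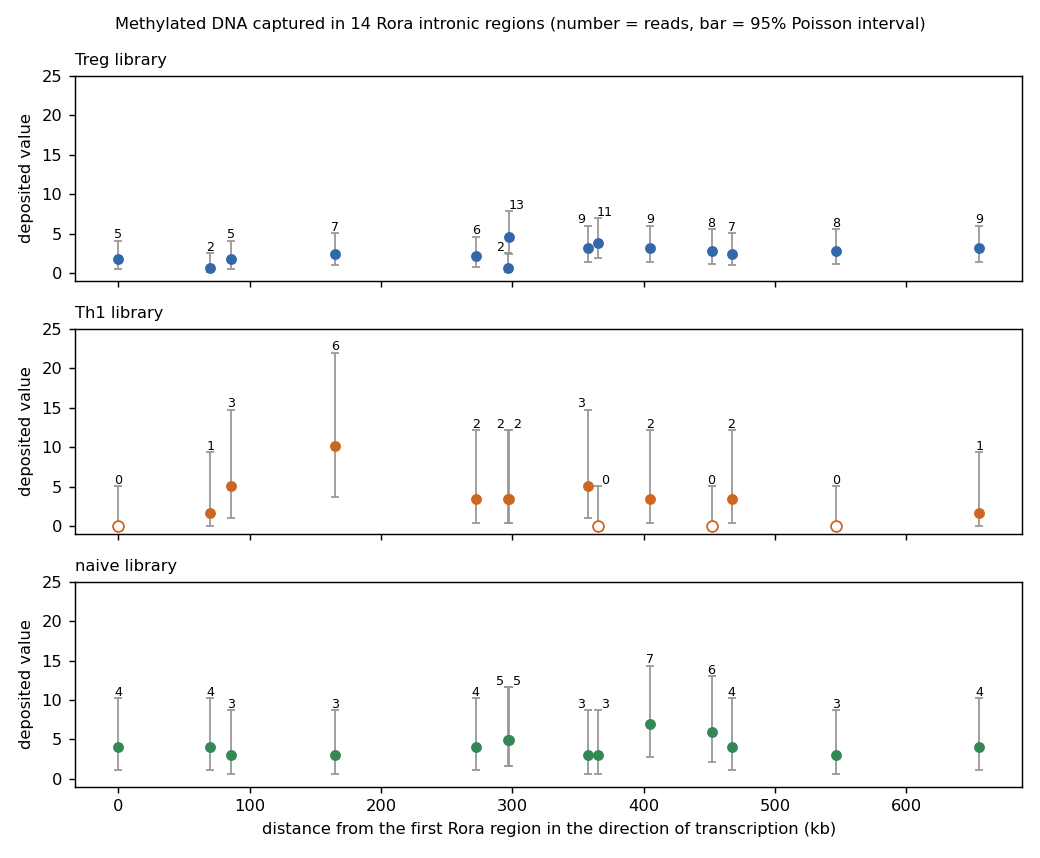
Deposited value of each Rora region (y axis) against distance from region 1 in kb (x axis), with a panel each for the Treg, Th1 and naive libraries. Bars are 95% Poisson intervals, and the number above each is its reads. Open circles are regions without a read, whose bar ends instead at the 1-sided limit for 0 reads, 5.04 in Th1. Treg values stay under 5 throughout, the Th1 panel has its peak of 10.1 at region 4 and 4 open circles, and the naive values lie between 2.99 and 6.97.

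Every Rora region was read in the Treg library (2 to 13 reads, median 7.5) and in the naive library (3 to 7 reads, median 4), while Th1 counts ran from 0 to 6 with a median of 2. In all, 10 of 14 regions, 71.4%, were read in all 3 libraries, against 85.6% of the intronic regions of other genes. The 4 regions without a Th1 read were 28.6%, against 12.6% of other intronic regions. The regions share their libraries and are not replicates, so a difference in these shares was not tested.

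Across the 14 regions, the Spearman correlation between length and total reads was 0.72, beside 0.26 over the 7851 intronic regions of other genes. Treg gives most of these reads. By library the correlation with length was 0.61 in Treg, 0.27 in Th1 and -0.06 in naive cells, beside 0.26, 0.24 and -0.19 over other introns. Between libraries the reads of the Rora regions had correlations of 0.01 for Treg and naive, -0.18 for Th1 and naive, and -0.10 for Treg and Th1, beside -0.22, -0.28 and 0.02 over other introns. These are descriptions over regions that share their 3 libraries and that were listed by a rule not given here, and most counts are small.

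Summed over the gene, Rora held 101 Treg, 24 Th1 and 58 naive reads. Per region the mean value was 2.54 in Treg (2.07 to 3.09), 2.88 in Th1 (1.85 to 4.29) and 4.13 in naive cells (3.13 to 5.33). The same means over 7851 intronic regions of other genes were 2.57, 3.26 and 3.43 in the same order of libraries. The naive level of Rora lay above that of other introns and its Treg and Th1 levels lay below, and all 3 intervals took in the level of the other introns. In order of level, naive came first, Th1 next and Treg last, and the intervals of each neighbouring pair overlapped.

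**Figure D2:**
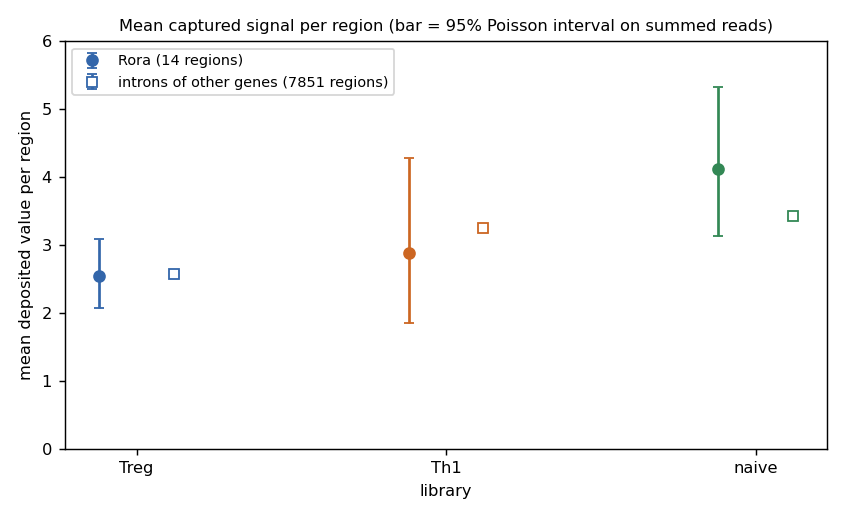
Mean deposited value per region (y axis) in the Treg, Th1 and naive libraries (x axis), for the 14 Rora regions (filled circles) and the 7851 intronic regions of other genes (open squares); bars are 95% Poisson intervals on the summed reads. The Treg points nearly coincide at 2.54 and 2.57, and the naive points are farthest apart at 4.13 and 3.43.

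The first comparison set Treg against naive cells, and asks where the Rora introns of regulatory cells carried more or less methylated DNA. The summed Rora values were lower in Treg cells than in naive cells, at a ratio of 0.616 (0.442 to 0.866) or -0.70 on the log2 scale (-1.18 to -0.21). Other introns had a log2 ratio of -0.42 and the whole table one of -0.38, so Rora lay below other introns by a log2 difference of -0.28, with an interval of -0.76 to 0.21. With the libraries scaled to equal table totals, which shifts every region by 0.38, the Rora ratio was -0.32 (-0.80 to 0.17), and its interval then included 0. Measured against the rest of the table, a Treg difference at Rora was not detectable at this depth.

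Region by region, a difference was counted by size alone: a log2 ratio of at least 1 either way, after 0.5 was added to both values. By that rule 3 of 14 Rora regions were lower in Treg than in naive cells, regions 2, 6 and 10, while 22.2% of the whole table was. None was higher, against 8.33% of the table. The count of lower regions is near the table's share. Regions 2 and 6, with 2 Treg reads each, had log2 ratios of -1.90 and -2.19, and region 10 one of -1.03. The median over the 14 regions was -0.61, beside -0.29 for the table. Of the 14 ratios, 12 were below 0, but the table's median was itself below 0 and its share below 0 was not computed. At equal table totals 2 Rora regions were lower and 0 higher, and the table's shares turned to 12.3% lower and 15.2% higher.

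The second comparison set Th1 against naive cells. Summed Rora values had a ratio of 0.698 (0.415 to 1.14), a log2 ratio of -0.52 (-1.27 to 0.19), where other introns had -0.08. The difference from other introns was -0.44 (-1.19 to 0.27), so a lower Th1 level at Rora was not detectable with 24 Th1 reads. Region 4 held 6 of those reads. Without it, an alternative chosen after its value was seen, the log2 ratio was -0.86 (-1.71 to -0.07). The upper end of that interval lies above the -0.08 of other introns, so a level below theirs was not detectable there either.

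By the size rule 6 of 14 Rora regions were lower in Th1 than in naive cells, against 29.0% of the table, and 4 of these 6 were the regions without a Th1 read. The other two were regions 2 and 14, each with 1 Th1 and 4 naive reads, which sit just past the threshold at -1.04. Only region 4 was higher in Th1, at 1.60, against 19.4% of the table. Regions 3 and 8, with 3 Th1 and 3 naive reads each, were next at 0.67. The median was -0.73, beside -0.19 for the table. Where the Th1 count is 0 the ratio is set by the added 0.5, so those 4 ratios have no size of their own. At equal table totals 4 Rora regions were lower and 1 higher in Th1, where the table had 21.3% lower and 19.7% higher.

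The third comparison set Treg against Th1 cells. Summed Rora values had a log2 ratio of -0.18 (-0.83 to 0.53), beside -0.34 for other introns. Rora lay above other introns by a log2 difference of 0.16, with an interval of -0.49 to 0.87, so no difference was detectable at this depth. The sign of the ratio changed with the scaling, which shifts every region alike: it was 0.14 at equal table totals and 0.21 with median-of-ratios scaling. Without region 4 it was 0.13. By the size rule 3 of 14 regions, 3, 4 and 6, were lower in Treg than in Th1 cells, against 21.0% of the table. Another 4 were higher, against 17.0%, and these were the 4 regions without a Th1 read. At equal table totals 3 were lower and 5 higher, where the table had 15.2% lower and 22.6% higher. The naive library is shared by the first 2 comparisons, as is each other library by 2 of the 3, so their counts are not independent of each other.

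**Figure D3:**
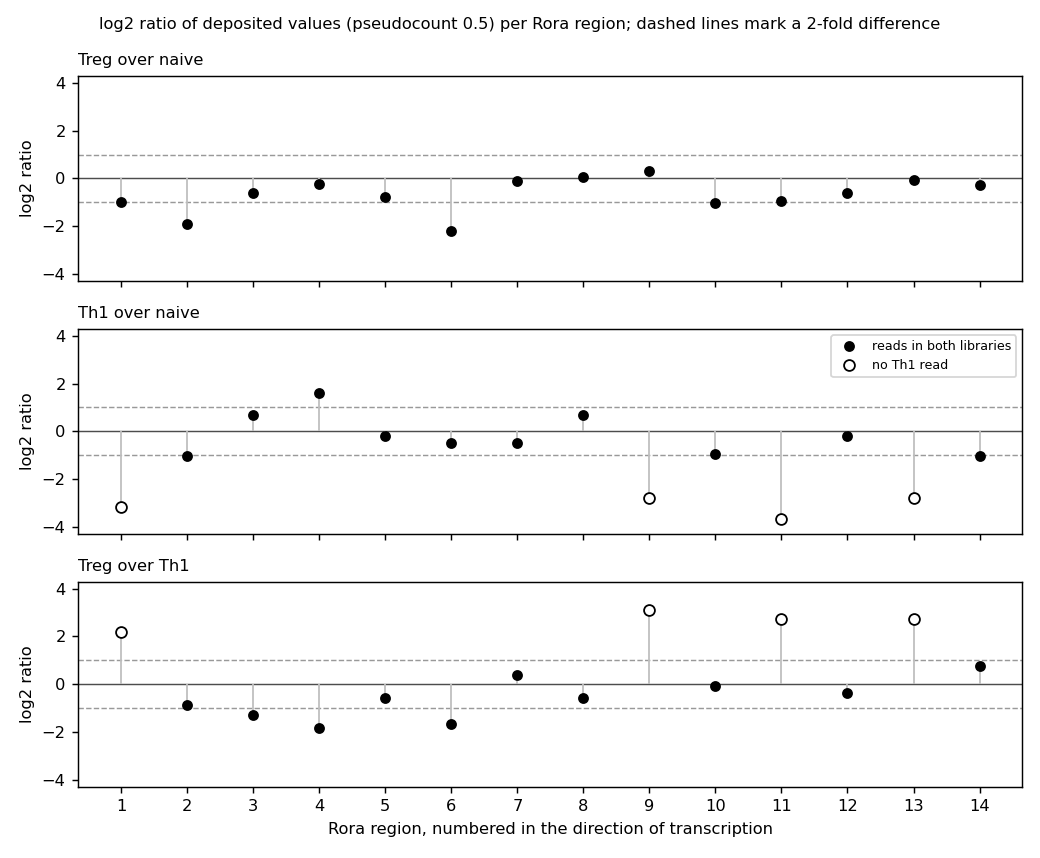
log2 ratio of deposited values, with 0.5 added to each (y axis), for the Rora regions numbered in the direction of transcription (x axis), in panels for Treg over naive, Th1 over naive and Treg over Th1; dashed lines mark the size rule and open circles are regions without a Th1 read. Treg over naive stays between -2.19 and 0.33, and the largest ratios in the other panels are open circles.

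An exact binomial test of the reads of 2 libraries, which compares those libraries and not the conditions, passed 0 of the 14 Rora regions after Benjamini-Hochberg adjustment over all 10000 regions. It passed 1 region of the 10000 for Treg against naive (0.0100%), and 0 (0.00%) for Th1 against naive and for Treg against Th1. Without adjustment, a p under 0.05 was found for 2 Rora regions for Treg against naive, regions 2 and 6, beside 8.40% of the table. For Th1 against naive it was found for 0, beside 1.53%, and for Treg against Th1 for region 4 alone, beside 5.01%.

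The regions were also summed in 2 parts along the gene. In the 5′ regions 1 to 7 there were 40 Treg, 16 Th1 and 28 naive reads, and in the 3′ regions 8 to 14 there were 61 Treg, 8 Th1 and 30 naive reads. Mean values in the 5′ part were 2.01 in Treg (1.44 to 2.74), 3.84 in Th1 (2.20 to 6.24) and 3.98 in naive cells (2.65 to 5.76). In the 3′ part they were 3.07 in Treg (2.35 to 3.95), 1.92 in Th1 (0.829 to 3.79) and 4.27 in naive cells (2.88 to 6.09). The order of Treg and Th1 was opposite in the 2 parts. For each library the intervals of the parts overlap, which is not a test of the difference between them.

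The Treg over Th1 log2 ratio was -0.93 (-1.80 to 0.00) in the 5′ part and 0.68 (-0.39 to 1.95) in the 3′ part, and these intervals overlap. Without region 4 the 5′ ratio was -0.53 (-1.59 to 0.65). For Treg over naive the ratios were -0.98 (-1.72 to -0.23) in the 5′ part and -0.48 (-1.13 to 0.21) in the 3′ part. At equal table totals the 5′ ratio was -0.61 (-1.34 to 0.14), and its interval then included 0. For Th1 over naive the ratios were -0.05 (-1.04 to 0.88) in the 5′ part and -1.15 (-2.49 to 0.01) in the 3′ part. At equal table totals the 3′ interval also included 0 (-2.43 to 0.06). It excluded 0 only with median-of-ratios scaling (-2.52 to -0.03), and the 3′ part held 8 Th1 reads. Without region 4 the 5′ value was -0.57 (-1.79 to 0.54), so much of the gap between the parts rests on that region. The 2 parts span 297.9 and 298.3 kb, and the difference between them was not tested.

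Rora was then set beside the other genes with many intronic regions in the table, 46 with 10 or more in all. Its naive mean of 4.13 was high among them, with 40 genes lower and a median of 3.69. The Treg mean of 2.54 was near the median of 2.50, and the Th1 mean of 2.88 was below the median of 3.00. The share of regions without a Th1 read was higher in 4 genes and lower in 41, with a median of 12.7%. On the log2 scale, with 0.5 added to the means, Rora had -0.60 for Treg over naive and -0.45 for Th1 over naive, beside medians of -0.53 and -0.29. Most of these genes showed the same signs: Treg over naive was below 0 in 45 of the 46 and Th1 over naive in 42.

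The genes nearest to Rora in the plane of these ratios, a likeness over 3 libraries, were Ptprg, Slit3 and Rbms3. Ptprg encodes a receptor-type tyrosine phosphatase, and its 11 regions had means of 2.50 in Treg, 2.90 in Th1 and 4.08 in naive cells. Slit3 encodes a secreted guidance ligand of Robo receptors, and its 12 regions had means of 2.61, 2.94 and 4.32 in the same libraries. Rbms3 encodes an RNA-binding protein, and its 21 regions had means of 2.48, 2.72 and 4.08. The distances from Rora were 0.03, 0.04 and 0.06 log2 units, smaller than the counting intervals of Rora itself.

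**Figure D4:**
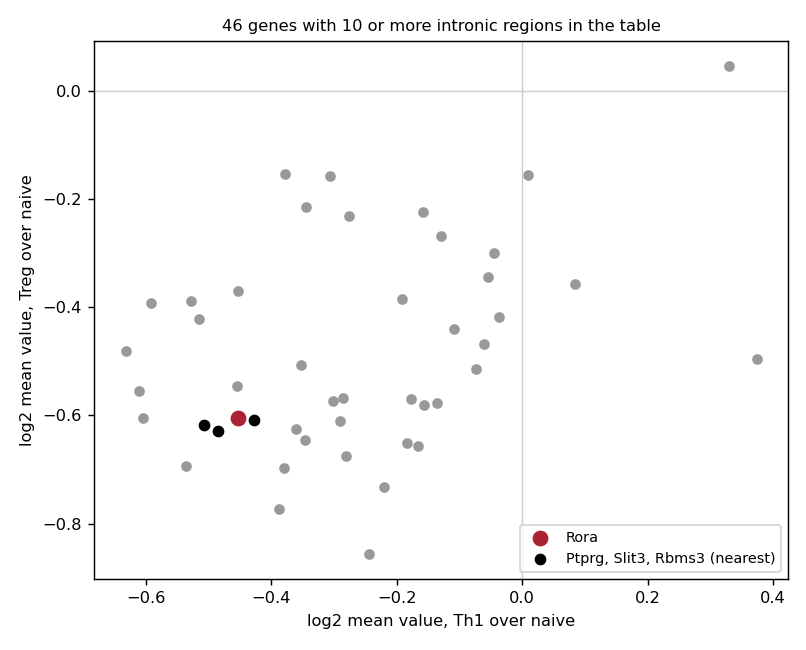
log2 ratio of mean values, with 0.5 added, for Treg over naive (y axis) against Th1 over naive (x axis) in the 46 genes with 10 or more intronic regions; Rora is the large red point, its 3 nearest genes are black and the others grey. Rora, at -0.45 and -0.60, lies inside the cloud of genes, most of which are below 0 on both axes.

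Rorb, a ROR family gene of retina and brain, had a single intronic region, on chromosome 19 (19076864 to 19077060), with 4 Treg, 1 Th1 and 3 naive reads, or values of 1.41, 1.68 and 2.99. As in the Rora mean, the naive value was the highest, and the intervals of such counts are wide.

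Of 19 Th17 transcription factors, 4 had a region. Besides Rora these were Runx1, a Runt-domain factor of T cell development, Rbpj, the DNA-binding factor of Notch signalling, and Foxo1, a factor of T cell quiescence. Runx1 had 7 Treg, 1 Th1 and 5 naive reads in an intron. The Rbpj intron had 9 Treg, 0 Th1 and 3 naive reads, and exon 3 of Foxo1 had 6 Treg, 2 Th1 and 4 naive reads. Of the 3 regions outside Rora, 2 were lower in Th1 than in naive cells by the size rule and 0 higher, beside 29.0% lower and 19.4% higher in the table. These 2, in Runx1 and Rbpj, held 1 Th1 read or none.

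Clock genes that ROR and REV-ERB proteins regulate or work with had regions in 5 of 13 cases: Arntl, Clock, Npas2, Per3 and Bhlhe41. Arntl, which encodes the activator BMAL1 and is a direct ROR target, had an intronic region with 7 Treg, 2 Th1 and 0 naive reads. Its naive value was listed as the lowest of the 3, where the naive mean of Rora was the highest. However, 0 naive reads allow a value of up to 2.99, above the Arntl Treg value of 2.47, so this order is not settled. Clock, the partner of BMAL1, had 2 regions with 13 Treg, 4 Th1 and 7 naive reads in sum. Npas2, a CLOCK relative, had 3 regions with 20 Treg, 1 Th1 and 12 naive reads. Exon 10 of Per3, a period gene of the repressor arm, had 5 Treg, 2 Th1 and 3 naive reads, and exon 5 of Bhlhe41, a repressor of BMAL1 activity, had 2 Treg, 2 Th1 and 5 naive reads. Of the 8 regions, 3 were lower and 1 higher in Treg than in naive cells, and 4 were lower and 2 higher in Th1 than in naive cells. The table had 22.2% lower and 8.33% higher for Treg, and 29.0% lower and 19.4% higher for Th1. The median log2 ratios of the clock genes were -0.70 for Treg and -0.77 for Th1, beside -0.29 and -0.19 in the table. At equal table totals 1 region was lower and 1 higher in Treg than in naive cells, beside 12.3% and 15.2% of the table.

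Nuclear receptor coregulators, the proteins through which ROR and its relatives activate or repress, had regions in 7 of 16 cases. Of their 12 regions, 6 were higher and 4 lower in Th1 than in naive cells, with a median log2 ratio of 0.91, where the table had 19.4% higher, 29.0% lower and a median of -0.19. In Treg against naive cells 0 were lower and 1 higher, beside 22.2% lower and 8.33% higher in the table. The median was -0.28, beside -0.29 in the table. The highest by mean value were Nrip1, a ligand-dependent corepressor, with 6 Treg, 5 Th1 and 3 naive reads, and Ep300, a histone acetyltransferase, with 5 Treg, 5 Th1 and 2 naive reads in exon 2. Ncoa1, a coactivator, had 15 Treg, 5 Th1 and 7 naive reads in 2 regions, and exon 8 of Ppargc1a, a coactivator of energy metabolism, had 10 Treg, 0 Th1 and 6 naive reads. The Th1 over naive median was 0.96 at equal table totals and 0.87 with median-of-ratios scaling. All 12 regions together held 28 Th1 and 35 naive reads, with means of 3.92 in Th1 and 2.91 in naive cells. Each regional ratio therefore rests on few reads, and the difference was not tested.

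Other nuclear receptors had regions in 16 of 43 cases, 38 regions in all, of which 36 were intronic. In this list 19 regions were lower and 1 higher in Treg than in naive cells, with a median log2 ratio of -0.96. The table had 22.2% lower, 8.33% higher and a median of -0.29. At equal table totals 8 were lower and 7 higher, with a median of -0.64, where the table had 12.3% lower, 15.2% higher and a median of 0.04. With median-of-ratios scaling 9 were lower and 6 higher, with a median of -0.65, where the table had 13.1% lower, 13.4% higher and a median of 0.03. In Th1 against naive cells 9 of the 38 were lower and 3 higher, beside 29.0% and 19.4% of the table, with a median of -0.51 beside -0.19. The count of lower regions is thus no larger than the table's share would give. The 4 with the highest mean values were the estrogen-related receptor gene Esrrb, the mineralocorticoid receptor gene Nr3c2, the thyroid hormone receptor gene Thrb and Esrrg. Nr3c2 held 12 regions, with means of 2.53 in Treg, 3.22 in Th1 and 4.23 in naive cells, close to those of Rora. Esrrb had 19 Treg, 3 Th1 and 10 naive reads in 2 regions, Thrb 32, 7 and 17 in 4 regions, and Esrrg 23, 9 and 25 in 5 regions. The log2 ratios of Nr3c2 were -0.65 for Treg over naive and -0.35 for Th1 over naive.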

How the data were processed

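Methylated DNA of the 4 populations was captured with a MethylCap kit, size-selected on a gel and sequenced, as the labels' protocols state. Bowtie 0.12.7, FastQC and build mm9 stand in the submitters' processing notes; the sources used here do not describe region calling, repeated matches or scaling. A signal per region and library was deposited, beside distances in bases that were not used. In 100% of Treg, Th1 and naive values the signal divided by the worth of 1 read came out whole (tolerance 1e-06), which gave the reads; all Th17 values are 0. Poisson, Clopper-Pearson and binomial calculations used scipy 1.17.1 with Python 3.11.15. The ratio intervals, the size rule and the exact test were tried on simulated reads with planted changes. Those reads were set deeper than these libraries, and the Poisson intervals were not part of that trial. Ratios of summed values carry exact conditional intervals. Each library was matched to its column by name.

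The members, gene lists, alternatives and naming rule were chosen with earlier results of these data known. The rule names all 14 regions, the 3 genes nearest in the log2 plane among those with at least 10 intronic regions, and, of each list, every gene with a region where there are 6 or fewer and otherwise the 4 with the highest mean value. Gene names are those of the table; the RefSeq table (GRCm38.p6) gave the strand and the promoter sequence only. Some genes of these lists are not reported here, and the lists' counts and medians leave them out.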

Additional observations from a re-analysis of the deposited data

How the results depend on the processing

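No paired analysis was possible because each population had 1 library. For summed Rora values, the log2 ratio ranged over the alternatives from -0.98 to -0.28 for Treg over naive, from -1.15 to -0.05 for Th1 over naive and from -0.93 to 0.68 for Treg over Th1. Treg over Th1 was -0.93 in the first 7 regions and 0.68 in the last 7. Among the 10 regions read in all 3 libraries, Th1 over naive was -0.05, since that choice drops the regions with no Th1 read. Counts by the size rule moved more. With a minimum of 1.5-fold, 8 regions were lower and 0 higher in Treg than in naive cells. In Th1 against naive cells 7 were lower and 3 higher, and in Treg against Th1 cells 5 were lower and 5 higher. With a pseudocount of 5, 0 were lower in Treg than in naive cells, 1 lower and 0 higher in Th1 than in naive cells, and 1 lower and 0 higher in Treg than in Th1 cells. Among regions with at least 10 reads in all, 1 was lower in Treg than in naive cells. The table's shares were not computed for these settings, so the counts cannot be set against the table. The exact test of reads left 0 in every comparison and direction. Of 77 alternative values, 61 stayed within the interval or within 1.5 times the count. A ratio can change sign inside a wide interval, as Treg over Th1 did with the scaling, so this tally does not measure stability. Merging regions under 1000 bases apart left 13 regions, and 8 had at least 2 reads in all 3 libraries. Depth limits most what the Th1 library shows, at 24 reads over the gene.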
